A study of Homo sapiens with 27 samples.

Results

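AZD8931, an inhibitor of EGFR, ERBB2 and ERBB3 signalling, was compared with gefitinib, an inhibitor of the EGFR kinase, in UMSCC1 cells carrying a pooled library of shRNAs against the human kinome. UMSCC1 is an established head and neck squamous cell carcinoma (HNSCC) line. The members are all shRNAs whose counts reached 10 or more in total across the 6 inhibitor libraries of this line, and 3055 of the 3177 shRNAs in the table (96.2%) met that rule. Of the 122 left out, 64 had 0 counts and 58 had 1 to 9 counts in these 6 libraries. Just inside the rule 13 shRNAs summed to 10 counts, and just outside it 5 summed to 9. UMSCC1 was chosen as the line in which the inhibitors were already known to differ most, so its rank among the lines is a description.

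The study screened 3 HNSCC lines, UMSCC1, UMSCC8 and UMSCC25, each under DMSO, gefitinib or AZD8931, in 3 plates per group and 27 libraries in all. Every group carried the same lentiviral pLKO library and had passed antibiotic selection before the agents were added, DMSO plates included. Cells were exposed for 72 h and recovered for 72 h without the agent, and the integrated cassettes were counted from genomic DNA at 144 h. The screen was run at 300 nM gefitinib and 30 nM AZD8931 according to the methods, while one field of the labels gives 1 µM for both, so that the doses may have differed between the groups compared and the response cannot be set at a matched dose. Transduction was done on duplicate plates before the selected cells were split among treatments, and whether the duplicates were combined first is not given in the sources used here. The p-values therefore measure the spread between plates, which may be technical. No cell line marker can be read from cassette counts.

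EGFR, ERBB2 and ERBB3 are receptor tyrosine kinases that signal as pairs. Ligand binding to EGFR or ERBB3 brings receptors together, the kinase domain of one partner phosphorylates the tail of the other, and the RAS-ERK and PI3K-AKT pathways are engaged. ERBB2 has no known ligand of its own and ERBB3 has little kinase activity, so the ERBB2-ERBB3 pair relies on both partners, and it can keep PI3K signalling active in carcinoma cells in which EGFR alone is blocked. In a pooled screen each cell carries a cassette meant to silence a kinase gene, and the count of a cassette stands for the abundance of the cells that hold it. An shRNA that is less abundant under an inhibitor can mark cells that were lost or grew more slowly, and counts cannot tell these apart. A count is read relative to the total of its library, and levels also varied between plates of a single group. The table names shRNAs by clone identifier only. The study ties 6 of these identifiers to TGFBR1 or TGFBR2, and the others are reported without a gene, so no list of pathway genes could be counted.

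Library totals in UMSCC1 lay between 266911 and 529543 counts under AZD8931, 379275 and 559422 under gefitinib, and 258742 and 491217 under DMSO. Levels are given in CPM, counts scaled to the depth of their library. Where an shRNA was at 0, as many as 3 counts remain possible, equal to 4.99 CPM in gefitinib replicate 3, the deepest inhibitor library after scaling, and 11 CPM in AZD8931 replicate 2, the shallowest, and such limits cover counting error only. AZD8931 replicate 1 stood apart from the other 8 libraries of the line. Its median correlation with them was 0.761 (Pearson, log2 CPM across shRNAs), against 0.824 to 0.852 for each of the others. It held 354 shRNAs at 0, against 260 and 189 in the other AZD8931 plates and 177 to 229 under gefitinib, and 438 at 0 after all libraries were thinned to 258742 counts, where the others held at most 260. Several results are therefore given with and without this plate, and the others with it only. Its part in them was not tested.

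Under AZD8931 the pool was held by fewer shRNAs. The number of shRNAs that together made up the first 50% of counts was 188, 222 and 243 under AZD8931 and 269, 260 and 265 under gefitinib, so that every AZD8931 plate lay below every gefitinib plate. The means were 218 ± 27.8 and 265 ± 4.51 (SD, n = 3 each), with a two-sided exact permutation p = 0.1, which is the smallest p that 3 plates against 3 can give. The DMSO plates ranged from 134 to 276 (mean 224 ± 78.0), a range that spans both inhibitors. shRNAs at 0 numbered 268 ± 82.8 and 206 ± 26.5 (n = 3 each, exact permutation p = 0.3). The share of the most abundant shRNA was 4.14 ± 1.52% under AZD8931 and 6.26 ± 0.546% under gefitinib (n = 3 each, exact permutation p = 0.1). Of 5 such measures computed on these libraries, with 2 of them after thinning, the smallest Benjamini-Hochberg adjusted p was 0.167 (exact permutation), and none can pass a threshold of 0.05 with 3 plates a group.

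A single shRNA, TRCN0000010117, passed the test across all shRNAs, and it was less abundant under AZD8931. Its raw counts were 4, 3 and 4 in the AZD8931 plates and 347, 142 and 88 in the gefitinib plates. Scaled to depth these were 12.2, 11 and 7.42 CPM under AZD8931 and 619, 365 and 146 CPM under gefitinib. All AZD8931 plates were low, all gefitinib plates were high, and the groups did not overlap. The AZD8931 counts lay at or just above the 3 that a count of 0 allows (9.15, 11 and 5.57 CPM in these plates). Little can therefore be read from how close together they lay, and the size of the fold is uncertain. The mean fell from 377 ± 237 to 10.2 ± 2.49 CPM (SD, n = 3), a log2 fold change of -5.21 (SE 0.88, 95% CI -7.06 to -3.35) or a 36.9-fold lower level. The p-value of edgeR's quasi-likelihood test was 1.22e-05 and the Benjamini-Hochberg adjusted p was 0.0374. The DMSO plates held 155, 44.2 and 504 CPM, above every AZD8931 plate and overlapping the gefitinib plates. Against DMSO the difference under AZD8931 was -4.54 on the log2 scale with an adjusted p of 0.0948 (edgeR), and that under gefitinib was 0.67 with an adjusted p of 0.999.

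The call on TRCN0000010117 kept its direction in every alternative run, with log2 fold changes from -5.57 to -4.62, and its adjusted p ranged from 1.27e-06 to 0.269. Without AZD8931 replicate 1 it was -5.37 with an adjusted p of 0.0407 (edgeR). The call was lost without AZD8931 replicate 3 (adjusted p = 0.0704), without gefitinib replicate 1 (0.269) and without gefitinib replicate 2 (0.124), and limma with sample quality weights gave -4.94 with an adjusted p of 0.228.

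Across all members the quasi-likelihood test thus called 1 shRNA lower (0.0327% of those tested) and 0 higher (0%) under AZD8931 than under gefitinib. At an unadjusted p under 0.05 the same fit held 231 lower (7.56%) and 213 higher (6.97%), and the next smallest adjusted p after TRCN0000010117 was 0.106, shared by 30 shRNAs. DESeq2 called 56 lower (1.95% of the 2869 to which it gave an adjusted p) and 41 higher (1.43%). The exact test of edgeR called 38 lower (1.24%) and 17 higher (0.556%), and limma with sample quality weights called 0, with a smallest adjusted p of 0.228. DESeq2 and the exact test shared 52 shRNAs, which is 53.6% of the 97 from DESeq2 and 94.5% of the 55 from the exact test, and all of both lists had an unadjusted p under 0.05 in the quasi-likelihood fit. Of the 52, 37 were lower and 15 higher. The number of calls hung on single plates, with 7 lower and 6 higher without AZD8931 replicate 2, and 0 in both directions without AZD8931 replicate 3, gefitinib replicate 1 or gefitinib replicate 2, where 324 to 471 shRNAs had an unadjusted p under 0.05 (edgeR).

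All 3 AZD8931 plates lay below all 3 gefitinib plates for 333 shRNAs (10.9%) and above them for 235 (7.69%). The balance of directions depended on scaling. With total counts in place of TMM factors the unadjusted counts were 257 lower and 137 higher, so that the higher shRNAs made up 34.8% in place of 48.0%, and the median log2 fold change of all members moved from 0.05 to -0.10. Without AZD8931 replicate 1 the counts were 172 lower (5.66%) and 98 higher (3.23%). Of these, 145 lower shRNAs were shared with the full set, which is 62.8% of the full set and 84.3% of the smaller one, and 75 higher shRNAs were shared, which is 35.2% and 76.5%.

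For most shRNAs the interval of the difference was wide, and a p that misses the threshold does not show that the inhibitors act alike on them. The median SE of the log2 fold change was 0.63 and the median half-width of its 95% interval was 1.32. The interval lay within a 2-fold change in either direction for 78 shRNAs (2.55%) and within a 4-fold change for 1476 (48.3%). For the other members a difference of more than 4-fold could not be set aside at this depth and spread.

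The other 5 shRNAs with the smallest p among those less abundant under AZD8931 had an adjusted p of 0.106 (edgeR). All 5 were called by DESeq2 and by the exact test, whereas limma with sample quality weights gave adjusted p of 0.228 to 0.243. Without AZD8931 replicate 1 their adjusted p was 0.160 to 0.184 (edgeR). TRCN0000006387 had 0, 0 and 1 counts under AZD8931 and 70, 58 and 14 under gefitinib, so that a single AZD8931 plate held it while every gefitinib plate did. Its depth-scaled ratio of gefitinib to AZD8931 was 104, with a counting interval of 18.4 to 4149. TRCN0000033457 was at 6.10, 36.7 and 11.1 CPM under AZD8931 and 307, 471 and 116 CPM under gefitinib, a log2 fold change of -4.10 (SE 0.86). The groups did not overlap for this shRNA, and the DMSO plates held 61.7, 57.5 and 292 CPM. TRCN0000037578, the most abundant of these, was at 30.5, 154 and 106 CPM under AZD8931 and 703, 895 and 494 CPM under gefitinib (log2 fold change -2.85, SE 0.62). TRCN0000037762 was at 15.3, 47.7 and 39.0 CPM and at 727, 358 and 130 CPM (log2 fold change -3.57, SE 0.80). For both, the lowest gefitinib plate was above the highest AZD8931 plate. TRCN0000000678 was at 0, 11 and 7.42 CPM under AZD8931 and 180, 126 and 76.5 CPM under gefitinib (log2 fold change -4.32, SE 0.99). With AZD8931 replicate 1 left out, TRCN0000033457, TRCN0000037578, TRCN0000037762 and TRCN0000000678 had log2 fold changes of -3.72, -2.43, -3.23 and -3.80.

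The 6 shRNAs with the smallest p among those more abundant under AZD8931 had an adjusted p of 0.106 each (edgeR). All 6 were called by DESeq2 and by the exact test, whereas limma with sample quality weights gave adjusted p of 0.228 to 0.262. Without AZD8931 replicate 1 their adjusted p was 0.288 to 0.466 (edgeR). TRCN0000010207 was at 888, 297 and 176 CPM under AZD8931 and 46.4, 38.6 and 74.8 CPM under gefitinib, a log2 fold change of 3.07 (SE 0.65, 95% CI 1.70 to 4.45). TRCN0000000944 was at 3244, 620 and 872 CPM against 314, 255 and 302 CPM (log2 fold change 2.44, SE 0.54). TRCN0000007165 was at 647, 132 and 150 CPM against 66.0, 25.7 and 33.2 CPM (log2 fold change 2.87, SE 0.70). In each of these the groups did not overlap and AZD8931 replicate 1 was the highest plate by a wide margin. TRCN0000040071 was at 3213, 1734 and 679 CPM against 320, 394 and 588 CPM, and TRCN0000002056 at 3298, 1173 and 956 CPM against 550, 409 and 505 CPM. TRCN0000021561 was at 2188, 1188 and 1273 CPM against 489, 504 and 500 CPM, the tightest gefitinib group of the 12 shRNAs named. With AZD8931 replicate 1 left out, TRCN0000010207 had a log2 fold change of 2.13 in place of 3.07, TRCN0000000944 of 1.36 in place of 2.44, and TRCN0000007165 of 1.74 in place of 2.87. TRCN0000040071 had 1.47 in place of 2.11 and TRCN0000002056 had 1.12 in place of 1.89, whereas TRCN0000021561 moved least, from 1.64 to 1.30.

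Some shRNAs were seen under a single inhibitor. Of the 3055 members, 26 were at 0 in all AZD8931 plates with at least 10 counts under gefitinib (10 to 82). Another 12 were at 0 in all gefitinib plates with at least 10 counts under AZD8931 (10 to 39). All of them met the rule of 10 counts through the group in which they were seen. Of the 26, 11 were counted in all 3 gefitinib plates and 25 had counts under DMSO. TRCN0000001935 had 60, 12 and 3 counts under gefitinib and 19, 12 and 37 under DMSO, and against the 3 counts that an empty group allows it was at least 18.4-fold lower under AZD8931. TRCN0000010034 had 36, 45 and 1 counts under gefitinib, at least 20.1-fold above AZD8931, and TRCN0000010127 had 50, 8 and 9, at least 16.4-fold above. These 3 were counted in every gefitinib plate, whereas the 53 gefitinib counts of TRCN0000040045, with a bound of at least 13.0-fold, all came from replicate 2. TRCN0000010196, with 15, 27 and 1 gefitinib counts, and TRCN0000010088, with 11, 23 and 8, had bounds of at least 10.5-fold and 10.3-fold. On the gefitinib side TRCN0000037738 had 26, 1 and 12 counts under AZD8931, at least 17.7-fold above gefitinib, and its DMSO counts of 39, 0 and 0 came from a single plate. TRCN0000000523 had 20, 0 and 11 AZD8931 counts with a bound of at least 14.1-fold, and TRCN0000000707, TRCN0000000861, TRCN0000002271 and TRCN0000006158 had bounds from at least 8.17-fold to at least 9.53-fold. These bounds cover counting error in the empty group only and leave out the spread between plates. The shRNAs named here had the most counts in the other group, so the bounds come from the values that chose them. In the quasi-likelihood fit the 95% CI of the log2 fold change was -11.31 to -3.48 for TRCN0000001935 and -12.81 to -2.65 for TRCN0000010034. It was -13.22 to -1.4 for TRCN0000040045 and 1.97 to 11.95 for TRCN0000037738, so smaller differences than the bounds remain possible. For TRCN0000040045 the groups overlapped, since gefitinib replicates 1 and 3 were at 0 like the AZD8931 plates. Its interval rests on a single plate, limma with sample quality weights gave an adjusted p of 0.758, and the absence of a difference also remains possible. None of the 12 shRNAs named here passed the adjusted threshold of the quasi-likelihood test. The exact test of edgeR called TRCN0000001935 (adjusted p = 0.0106) and TRCN0000010127 (adjusted p = 0.0184), and DESeq2 called these as well as TRCN0000010034 (adjusted p = 0.0250) and TRCN0000010196 (adjusted p = 0.0429). The counts of 26 and 12 moved with single plates. Leaving out AZD8931 replicate 2 or 3 gave 43 or 56 shRNAs at 0 under AZD8931, and leaving out gefitinib replicate 1 gave 17. On the gefitinib side there were 7 with AZD8931 replicate 1 left out, and 21 or 25 with gefitinib replicate 1 or 3 left out.

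Rarer shRNAs leaned towards lower and abundant ones towards higher levels under AZD8931. The members were split into 5 groups of 611 by edgeR's average log2 CPM over the 9 libraries of UMSCC1, DMSO included. This measure shares data with the fold change. The median log2 fold change was -0.43, -0.22, 0.01, 0.13 and 0.35 from the rarest to the most abundant group. The rarest group held 59 lower and 22 higher shRNAs at an unadjusted p under 0.05, and the most abundant one held 26 lower and 91 higher. Without AZD8931 replicate 1 the medians were -0.49, -0.22, -0.04, 0.00 and 0.11, with the order kept and the upper end closer to 0. The spread between plates was also unequal, with a median SD of log2 CPM of 0.788 over the AZD8931 plates, 0.473 over AZD8931 replicates 2 and 3 alone, 0.545 under gefitinib and 0.601 under DMSO.

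Clone identifiers are numbered, and those of a gene often follow each other in the library, although the files do not say where genes begin and end. The 6 shRNAs with the smallest p in each direction had 18 members whose number differed from theirs by 1. Of these 18, 14 had a log2 fold change of the same sign, where 48.0% of all members were negative and 52.0% positive. An unadjusted p under 0.05 was reached by 2 of the 18, beside 7.56% lower and 6.97% higher among all members. TRCN0000033458 had a log2 fold change of -2.42 (SE 0.82) beside -4.10 for TRCN0000033457, and TRCN0000037761 had 1.45 (SE 0.52) beside -3.57 for TRCN0000037762, the opposite direction. TRCN0000010116 and TRCN0000010118, on either side of the called shRNA, had log2 fold changes of 0.62 and 0.28. Over all 2587 neighbouring pairs the correlation of the log2 fold changes was 0.036 (Pearson, across shRNAs that share the same plates). Of 187 lower shRNAs with a next number in the table, 16 of those next shRNAs (8.56%) were also lower at an unadjusted p under 0.05, beside 7.56% of all members. The 225 members in the run of 1000 numbers that starts at 10000 held 36 lower (16.0%) and 10 higher (4.44%), with a median log2 fold change of -0.41 (-0.28 without AZD8931 replicate 1). They were rarer than the rest, at a median of 86.2 CPM against 151 CPM for all members. Within the rarest of the 5 abundance groups, 13 of 61 in this run were lower against 46 of 550 others, with median log2 fold changes of -1.10 and -0.35. In the other groups, towards the most abundant, the medians were -0.53, -0.34, -0.19 and 0.38 in the run. Outside it they were -0.17, 0.03, 0.13 and 0.35. In the last 2 groups 2 of 29 and 2 of 14 in the run were lower, against 40 of 582 and 24 of 597 others. The run was picked after the data were seen, and some smaller runs held a larger share of lower shRNAs. Over the whole run the median log2 fold change was 0.22 in UMSCC25 and -0.13 in UMSCC8.

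TGFBR1 and TGFBR2 are the type I and type II receptors of TGF-β, serine/threonine kinases in which the type II receptor activates the type I receptor to pass the signal to SMAD proteins. TGFBR1 lies on chromosome 9 (99104038 to 99154192, plus strand) and TGFBR2 on chromosome 3 (30606502 to 30694142, plus strand) in GRCh38, GENCODE release 29. None of the 6 shRNAs passed the test (0 of 6). TRCN0000039775 against TGFBR1 was at 18.3, 99.0 and 98.4 CPM under AZD8931 and 211, 113 and 150 CPM under gefitinib, without overlap, with a log2 fold change of -1.13 (95% CI -2.60 to 0.35, adjusted p = 0.481, edgeR). TRCN0000039776 and TRCN0000039777, also against TGFBR1, had log2 fold changes of -1.04 (95% CI -3.29 to 1.21) and -0.54 (95% CI -2.01 to 0.92). These 3 estimates were negative with intervals across 0. TRCN0000039774, the remaining TGFBR1 shRNA, had 0, 17 and 2 counts under AZD8931 and 0, 7 and 4 under gefitinib, with a log2 fold change of 1.39 (95% CI -1.67 to 4.45) that was -1.77 without AZD8931 replicate 2. The TGFBR2 shRNAs TRCN0000040008 and TRCN0000040011 had log2 fold changes of -0.31 (95% CI -3.0 to 2.39) and 0.22 (95% CI -1.43 to 1.87), and the sign of each turned when single plates were left out. TRCN0000040008 had 0, 20 and 1 counts under AZD8931 and 19, 10 and 18 under gefitinib. Leaving out AZD8931 replicate 1 or 3 gave it a log2 fold change of 0.27 or 0.32. TRCN0000040011 had 58, 9 and 16 counts under AZD8931 and 57, 14 and 40 under gefitinib. Leaving out AZD8931 replicate 1 or gefitinib replicate 2 gave it -1.12 or -0.084, total counts in place of TMM factors gave -0.078, and limma with sample quality weights gave -0.79.

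Each inhibitor was also compared with the same DMSO plates, which both comparisons share. edgeR's quasi-likelihood test called 0 shRNAs under AZD8931 (0% of 3055) and 0 under gefitinib (0%). At an unadjusted p under 0.05 there were 140 lower (4.58%) and 146 higher (4.78%) under AZD8931, and 56 lower (1.83%) and 50 higher (1.64%) under gefitinib. DESeq2 called 24 under AZD8931 and 0 under gefitinib, the exact test 2 and 0, and limma with sample quality weights 0 and 0. The count under AZD8931 was 1 without DMSO replicate 2. The unadjusted total of 286 under AZD8931 (9.36%) became 138 without DMSO replicate 3, 183 without AZD8931 replicate 1 and 432 without AZD8931 replicate 2. That of 106 under gefitinib (3.47%) became 69 without DMSO replicate 1, 68 without DMSO replicate 2 and 176 without AZD8931 replicate 1, which enters the shared spread. The 231 lower shRNAs had a median log2 fold change of -1.56 against DMSO under AZD8931 and 0.66 under gefitinib. The 213 higher shRNAs had medians of 0.91 and -0.55. These values describe the 2 lists and share plates with the comparison that chose them.

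In the other lines edgeR's quasi-likelihood test called 0 shRNAs between the inhibitors, 0% of 3070 in UMSCC25 and 0% of 3095 in UMSCC8. At an unadjusted p under 0.05, UMSCC25 had 110 lower (3.58%) and 139 higher (4.53%) under AZD8931, 249 in all (8.11%), and UMSCC8 had 85 lower (2.75%) and 69 higher (2.23%), 154 in all (4.98%). DESeq2 called 1 in UMSCC25 and 0 in UMSCC8, and the exact test and limma with sample quality weights called 0 in both. Without gefitinib replicate 1 the UMSCC25 count was 48, so that the number in that line also hung on a plate. Leaving out gefitinib replicate 1 or 2 brought the unadjusted total of UMSCC25 to 405 or 150. That of UMSCC8 was 73 and 78 without AZD8931 replicate 1 or 3, 234 and 76 without gefitinib replicate 2 or 3, and 235 without DMSO replicate 1. The UMSCC1 shRNAs did not keep their direction there. Of the 231 lower in UMSCC1, 229 were tested in UMSCC25, and 181 of these (79.0%) had a positive log2 fold change with a median of 0.72, where 49.2% of all shRNAs tested were positive and the median was -0.01. In UMSCC8, 119 of 230 (51.7%) were negative with a median of -0.03, beside 51.6% and -0.02 for all shRNAs. Of the 213 higher in UMSCC1, 137 of 208 (65.9%) were negative in UMSCC25, with a median of -0.19. With the lists drawn without AZD8931 replicate 1 the UMSCC25 medians were 0.71 and -0.26. The shRNAs of a list share plates and are not independent of each other, so these shares describe the lists only. Plates of a single group in these lines also differed in the level of the lists, as given below.

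The difference between lines was tested directly as an interaction in 1 fit over all 27 libraries. Between UMSCC1 and UMSCC25 it passed for 97 of 3104 shRNAs (3.12%), 75 with the lower value in UMSCC1 (2.42%) and 22 with the higher (0.709%). All 97 had log2 fold changes of opposite sign in the 2 lines. Choosing shRNAs by a large difference between lines favours opposite signs, so this describes the list only. TRCN0000010117 was among the 97, with log2 fold changes of -5.21 in UMSCC1 and 2.63 in UMSCC25 (interaction adjusted p = 0.0147, edgeR). The number rested on single plates. Leaving out AZD8931 replicate 1 or 2 of UMSCC1 gave 0 or 269, and leaving out gefitinib replicate 1 or 2 of that line gave 41 or 46. Of the UMSCC25 plates, it was 182, 1 and 51 without gefitinib replicate 1, 2 or 3, and 30 with either AZD8931 replicate 2 or 3 left out. At an unadjusted p under 0.05 there were 616 (19.8%) with all plates and 424 without AZD8931 replicate 1 of UMSCC1 (edgeR).

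Between UMSCC1 and UMSCC8 the interaction passed for 2 of 3119 shRNAs (0.0641%), both named after their values were seen, and for 0 with total counts in place of TMM factors, where 458 had an unadjusted p under 0.05 (edgeR). TRCN0000037701 had log2 fold changes of 1.59 in UMSCC1 and -0.71 in UMSCC8, a difference of 2.28 (SE 0.45, adjusted p = 0.0203, edgeR). TRCN0000000669 had 1.09 and -0.96, a difference of 2.06 (SE 0.41, adjusted p = 0.0203, edgeR). Among the UMSCC1 plates the count was 0 without AZD8931 replicate 1, 18 without AZD8931 replicate 2, 32 without AZD8931 replicate 3, 0 without gefitinib replicate 1 or 3, and 4 without DMSO replicate 2. Among the UMSCC8 plates it was 0 without AZD8931 replicate 1 or 3, 1 without AZD8931 replicate 2, 8 without gefitinib replicate 2, 0 without gefitinib replicate 3, and 4 without DMSO replicate 1. At an unadjusted p under 0.05 there were 480 (15.4%) with all plates, and 342 to 493 in the fits that gave 0 (edgeR).

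Several of the lower shRNAs also varied between plates of a single group in the other lines. TRCN0000010117 was at 296, 5.13 and 50.9 CPM in the gefitinib plates of UMSCC25, at 221, 1325 and 641 CPM in its AZD8931 plates, and at 85.2, 13.9 and 296 CPM in the DMSO plates of UMSCC8. Its ratio of highest to lowest plate in the 6 groups of these lines ran from 2.43-fold to 57.8-fold, and the lowest plate of the widest group held 2 counts, fewer than the 3 that a count of 0 allows. TRCN0000037762 was at 245, 12.8 and 44.2 CPM in the gefitinib plates of UMSCC25 and at 184, 23.2 and 477 CPM in the DMSO plates of UMSCC8. The plates that were low for TRCN0000010117 were also low for this shRNA. TRCN0000006387 was at 7.41, 0 and 2.21 CPM and at 27.6, 0 and 105 CPM in the same plates. TRCN0000037578 spanned less, from 1.33-fold to 5.63-fold. The 6 higher shRNAs had spans in these groups from 1.12-fold to 5.94-fold, and TRCN0000021561 spanned 1.16-fold to 1.57-fold.

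This joint movement was measured as a correlation of deviations from the group mean over the 18 libraries of UMSCC25 and UMSCC8, in which differences between agents and lines are removed. The 15 pairs among the 6 lowest-p lower shRNAs had correlations from 0.611 to 0.979 with a median of 0.820, whereas the median over all pairs of shRNAs was 0.00. The 6 higher shRNAs had a median of 0.481 among themselves and of -0.428 with the lower ones. The points share plates and library depth, and the values are a description. Of the 100 shRNAs whose deviations were most like those of TRCN0000010117, 73 were among the 231 lower in UMSCC1, a list that holds 7.56% of all members, and 98 had a negative log2 fold change there, beside 48.0% of all members. The most alike were TRCN0000102629 (r = 0.955), TRCN0000001750 (r = 0.945) and TRCN0000037762 (r = 0.945), of which the first 2 were named after their values were seen.

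The same balance was followed plate by plate as the mean log2 CPM of the 231 lower shRNAs minus that of the 213 higher ones. In the plates that chose the lists it was -5.33, -2.70 and -2.68 under AZD8931 and 0.32, 0.36 and -0.43 under gefitinib. In the DMSO plates of UMSCC1, which entered the fit behind the lists through the shared spread, it was -1.50, -2.03 and -0.26. In UMSCC8, which did not enter that fit, it was -0.80, -1.73 and -0.13 under DMSO, -0.31, -0.22 and -0.70 under gefitinib, and -0.74, 0.13 and -0.43 under AZD8931. In UMSCC25 it was -0.52, -2.39 and -1.80 under gefitinib, -1.33, -0.21 and -0.08 under AZD8931, and -1.15, -1.28 and -1.06 under DMSO. Plates of a single group in these other lines thus differed by 0.21 to 1.88 on this log2 scale with no difference in agent. With lists drawn without AZD8931 replicate 1 that plate had a value of -3.60, below all other UMSCC1 plates, although it had not entered the choice. That plate also stood apart from the other libraries of the line, so the value is a description. On the same lists the DMSO plates of UMSCC1 differed by 1.65 and the gefitinib plates of UMSCC25 by 1.90. The median SD of log2 CPM within a group was 0.838 for the lower shRNAs, 0.500 for the higher ones and 0.601 for all shRNAs in the DMSO plates of UMSCC1. The lists also differed in abundance, with median DMSO levels of 108, 241 and 146 CPM in the same order. Rarer shRNAs were less precise, with a median SE of 1.37 in the rarest abundance group and 0.43 in the most abundant. The part of abundance in the spread of the lists was not tested. In UMSCC8 the lower and all shRNAs had 0.947 and 0.522 under DMSO, 0.553 and 0.479 under gefitinib, and 0.476 and 0.382 under AZD8931. In UMSCC25 they had 0.415 and 0.354 under DMSO, 1.01 and 0.554 under gefitinib, and 0.567 and 0.464 under AZD8931. The gap was widest in the DMSO plates of UMSCC8 and the gefitinib plates of UMSCC25 and smaller in the other groups of these lines. The part of this plate-to-plate movement in the difference between the inhibitors in UMSCC1 was not tested.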

How the data were processed

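Cassettes amplified from the genomic DNA of 27 plates were sequenced, and the authors deposited 1 table of raw counts per shRNA and library, whole numbers without normalization. The submitters' processing notes name Bowtie 1.0.0, edgeR (version not given in the sources used here) and hg19, and the methods name BiNG!S. No replicate pair of UMSCC1 agreed within sampling noise (reduced chi-square 14.3 to 39.4), and 0 columns were left unused. The identifiers are not paired with genes or sequences in the files used here. Positions of TGFBR1 and TGFBR2 are those of GRCh38 (GENCODE release 29) and not of hg19, and no coordinate was converted.

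Groups were taken from line, agent and replicate in the labels. The main test was the quasi-likelihood test of edgeR 4.0.16 (R 4.3.3, robust glmQLFit, then glmQLFTest), with TMM factors and the 9 libraries of UMSCC1 in 1 fit. shRNAs needed at least 10 counts over the 6 inhibitor libraries, and the threshold was a Benjamini-Hochberg adjusted p of 0.05. CPM are counts over TMM-scaled totals, and log2 CPM used a prior count of 2. Named shRNAs are the 6 with the smallest p in each direction, the 6 tied to TGFBR1 or TGFBR2, and the 6 with the most counts in each set at 0 in a group. The members, lists and rules were chosen with earlier results of these data known. The SE is the log2 fold change over the square root of the quasi-likelihood F. Alternatives were DESeq2 1.42.0, limma 3.58.1 with sample quality weights, edgeR's exact test, RLE and total-count scaling, other filters, a non-robust fit, the 6 libraries alone, a replicate term and each library left out. The sets drawn without AZD8931 replicate 1, the split by abundance and the identifier block were added after the data were seen. PCR reads carry no molecular identifiers, so counts are not independent molecules.

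The fit was tested on simulated counts for 3020 shRNAs with the library totals of UMSCC1. Each shRNA had a common mean over all libraries of the line, DMSO included, and its own estimated spread. The fit called 1 of 2823 unchanged shRNAs, and 5.97%, 30.3% and 73.4% of those changed 2-fold, 4-fold and 8-fold. Counts were drawn independently, without joint movement of shRNAs between plates and without a plate that stood apart. These rates therefore need not hold for the real plates.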

Additional observations from a re-analysis of the deposited data

Results flagged for a closer look

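For 13 of the shRNAs named by rule the difference between AZD8931 and gefitinib was not the same in UMSCC1 and UMSCC25 by the interaction test over all libraries (edgeR). The adjusted p was 0.0147 for TRCN0000010117, TRCN0000006387, TRCN0000037578 and TRCN0000010127, and 0.0150 for TRCN0000001935 and TRCN0000021561. It was 0.0164 for TRCN0000033457 and TRCN0000000944, 0.0169 for TRCN0000037762 and TRCN0000000678, 0.0170 for TRCN0000010034, 0.0177 for TRCN0000010207 and 0.0273 for TRCN0000007165. For TRCN0000037701 and TRCN0000000669 the difference was not the same in UMSCC1 and UMSCC8, with an adjusted p of 0.0203 each (edgeR). The 13 were chosen by their values in UMSCC1, so their differences from another line are not independent of that choice. With AZD8931 replicate 1 of UMSCC1 left out, 0 shRNAs passed either interaction test (edgeR), with 424 and 342 at an unadjusted p under 0.05.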

How the results depend on the processing

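For AZD8931 against gefitinib in UMSCC1 the number of lower calls was 56 with DESeq2, 38 with the exact test and 0 with limma, and the number of higher calls was 41 with DESeq2 and 17 with the exact test. DESeq2 called 24 and the exact test 2 for AZD8931 against DMSO, and DESeq2 called 1 in UMSCC25. The interaction with UMSCC25 gave 206 calls with DESeq2 and 0 with limma, and that with UMSCC8 gave 55 with DESeq2, 1 with limma and 0 with total counts. With each library left out in turn, calls between the inhibitors ranged from 0 to 7 lower and from 0 to 6 higher, those for AZD8931 against DMSO from 0 to 1, and those in UMSCC25 from 0 to 48. The interaction counts ranged from 0 to 269 and from 0 to 32, and the shRNAs at 0 in a group from 17 to 56 for AZD8931 and from 7 to 25 for gefitinib. Scaling by RLE factors, filters and the non-robust fit moved none of these counts by more than 1.5 times except where a count is given above. The causes were not tested.

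The log2 fold change of TRCN0000040011 turned from 0.22 to -0.078 with total counts, -0.79 with limma and -0.11 with a replicate block, and ranged from -1.12 to 0.60 with single libraries left out. Those of TRCN0000039774 and TRCN0000040008 ranged from -1.77 to 2.55 and from -4.47 to 0.32 in the same fits.

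The replicate numbers did not pair the plates, since deviations of same-numbered plates had correlations from -0.139 to 0.208, those of other plates from -0.343 to 0.243, and 4 of 9 libraries correlated best with their own number. With the replicate block the calls between the inhibitors in UMSCC1 were 0 lower (TRCN0000010117 had a log2 fold change of -5.31 and an adjusted p of 0.117 in edgeR), the interaction with UMSCC25 gave 40 and that with UMSCC8 gave 0. Depth limits the rarest 611 shRNAs, whose median 95% interval had a half-width of 2.88 on the log2 scale, against 0.91 for the most abundant 611.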
